A study of Rattus norvegicus with 24 samples.

Results

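Nuclear receptors and their coregulators were described in mesenteric arteries, which carry blood to the gut, of ovariectomised female Sprague Dawley rats. The genes were chosen by symbol, as receptors of the NR families with NR, PPAR, RAR, RXR, thyroid hormone receptor or vitamin D receptor names, and coregulators with NCOA, NCOR or NRIP names. The receptors for estrogen and progesterone and Nr1d2 were left out. The choice found 31 of the 6455 genes on the array, read by 45 of its 10399 probes, of which 7294 carried a single gene symbol. By its symbol Ppargc1a was chosen with the PPAR receptors, but it encodes the coactivator PGC-1 alpha and is described with the coactivators here.

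Each rat had its ovaries removed at 3 weeks of age, rested for 2 weeks and then received an intraperitoneal injection on each of 4 days, so that tissue was taken at 5.5 weeks. The groups were estradiol benzoate, an injectable ester of estradiol, at 0.15 mg per kg per day, testosterone, the main androgen, at 1 mg per kg per day, and vehicle, which was sesame oil. Each group held 4 rats, and all 3 groups lacked ovaries, so no group with its own ovarian hormones is compared. The cRNA of each rat was hybridised to 2 one-colour CodeLink arrays, and animals are named by the number in their label. Values are log2 of the deposited spot intensity, averaged over both arrays of an animal. Because every probe binds with its own strength, levels are compared between animals for 1 probe and never between probes.

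Nuclear receptors are transcription factors that bind DNA and, in most cases, a small fat-soluble ligand such as a steroid, thyroid hormone, retinoic acid, vitamin D or a fatty acid. With ligand they recruit coactivators, which open chromatin and attract the transcription machinery, and without ligand several of them hold corepressors that keep genes silent. Most of the thyroid, retinoid, vitamin D and lipid receptors bind DNA as a pair with a retinoid X receptor (RXR). In the artery wall, the glucocorticoid and mineralocorticoid receptors act on tone and salt-dependent remodelling, and PPAR gamma in smooth muscle and endothelium is known for its part in blood pressure control and in fat cells for driving their differentiation.

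The 5 receptors with an unadjusted p under 0.05 against vehicle are shown by the stretch around their transcription start, from RefSeq's GRCr8 assembly, with 250 bases before and 50 after the start. A promoter was found for 25 of the 31 genes. Capitals mark matches on either strand to AGGTCA, the half-site of thyroid, retinoid and related receptors, to AGAACA, the half-site of the steroid receptors, and to GGGCGG, the GC box. The promoters of the thyroid hormone receptors are shown first because their probes lay on the same side in the comparisons below. Thra lies on the plus strand at chr10:84197891-84198190, and Thrb on the minus strand at chr15:10461397-10461696. Vdr lies on the minus strand at chr7:130916708-130917007. Nr1i2 lies on the plus strand at chr11:75965467-75965766, and Nr0b1 on the plus strand at chrX:54707408-54707707.
Thra: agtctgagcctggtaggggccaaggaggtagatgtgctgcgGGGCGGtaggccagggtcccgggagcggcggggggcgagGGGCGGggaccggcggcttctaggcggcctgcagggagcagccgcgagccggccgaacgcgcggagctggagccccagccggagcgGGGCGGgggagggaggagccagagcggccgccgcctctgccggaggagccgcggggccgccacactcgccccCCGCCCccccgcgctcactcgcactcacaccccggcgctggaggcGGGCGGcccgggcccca
Thrb: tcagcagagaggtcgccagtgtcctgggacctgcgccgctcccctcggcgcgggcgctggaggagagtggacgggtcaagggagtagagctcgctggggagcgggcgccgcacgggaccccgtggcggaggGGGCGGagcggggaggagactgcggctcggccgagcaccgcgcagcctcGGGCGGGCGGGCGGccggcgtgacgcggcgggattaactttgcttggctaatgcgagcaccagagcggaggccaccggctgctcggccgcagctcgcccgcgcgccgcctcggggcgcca
Vdr: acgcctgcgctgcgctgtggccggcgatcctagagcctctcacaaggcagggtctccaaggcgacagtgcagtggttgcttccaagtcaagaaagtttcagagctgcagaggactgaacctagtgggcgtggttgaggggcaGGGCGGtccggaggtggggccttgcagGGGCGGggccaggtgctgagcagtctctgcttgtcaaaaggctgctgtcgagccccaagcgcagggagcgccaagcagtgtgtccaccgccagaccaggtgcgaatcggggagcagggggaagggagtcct
Nr1i2: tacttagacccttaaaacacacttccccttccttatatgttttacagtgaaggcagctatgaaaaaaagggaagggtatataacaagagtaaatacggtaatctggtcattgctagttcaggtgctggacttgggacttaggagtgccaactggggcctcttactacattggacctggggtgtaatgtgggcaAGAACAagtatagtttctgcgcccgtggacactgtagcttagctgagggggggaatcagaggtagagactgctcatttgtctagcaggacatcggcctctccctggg
Nr0b1: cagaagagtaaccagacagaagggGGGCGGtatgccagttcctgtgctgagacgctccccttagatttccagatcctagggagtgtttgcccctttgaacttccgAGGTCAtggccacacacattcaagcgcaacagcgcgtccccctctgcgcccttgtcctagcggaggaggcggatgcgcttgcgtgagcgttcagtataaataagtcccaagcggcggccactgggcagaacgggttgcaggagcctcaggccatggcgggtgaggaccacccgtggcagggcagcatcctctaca
In the Thra stretch the capitals are 5 GC boxes, and in the Thrb stretch they are 4 GC boxes, of which those from base -70 to base -57 before the start overlap. The Vdr stretch holds 2 GC boxes. None of these 3 stretches held AGGTCA or AGAACA. The capitals in Nr1i2 are an AGAACA from base -57 to base -52, and Nr0b1 held an AGGTCA from base -145 to base -140 and 1 GC box. Over the 25 promoters, AGGTCA was present in 4 (16.0%, against 15.68% of 27457 rat promoters of the same length), AGAACA in 3 (12.0%, against 20.06%) and GGGCGG in 15 (60.0%, against 34.89%). The median GC content was 63.0% for these genes and 52.3% for all promoters. None of the 25 held the full estrogen response element, GGTCA and TGACC with 3 bases between, the androgen and glucocorticoid element, AGAACA and TGTTC with 3 bases between, AGGTCA repeated with 4 bases between or AGGTCA repeated with 1 base between. Of all 27457 promoters these longer motifs were found in 7, 10, 1 and 16, in the order named. The E-box CACGTG, also searched, was present in 1 of the 25 (4.0%, against 6.65%). Every motif was searched on both strands, and the longer ones contain the letters of the half-sites, in full or but for 1 base. These letters describe the windows and say nothing of binding.

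Of the 45 probes, 43 for 30 genes entered the test, which asked for values from 3 or more animals in every group. The probe for Nr0b2, the small heterodimer partner that represses other receptors, had no value on any array, and 1 of the 2 probes for Rara lacked values in 3 animals. A value in all 12 animals was present for 42 probes. Among the tested probes, 18 lay in the dimmest 25% of all probes on the array (log2 of -2.20 or lower) and 25 above it. The standard deviation (SD) between animals of a group was 0.239 for the median receptor or coregulator probe (range 0.0970 to 1.03), against 0.195 over all tested probes. It was 0.359 among the dim probes and 0.225 among the others, and the SD between duplicate arrays was 0.232 and 0.114 in the same order. The number of animals limits the precision of every value.

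The arrays and the tissue were first checked. Array medians lay between 0.926 and 0.951, and duplicate arrays correlated across probes with r between 0.976 and 0.993. Of the smooth muscle markers, 5 were measured and 4 lay above log2 0 in every animal, with Cnn1 between 4.82 and 5.57. Of the endothelium markers, 8 were measured and 6 lay above log2 0 in every animal, with Pecam1 between 4.55 and 5.09. Signals of other tissues were uneven between animals. The summed intensity of 11 hepatocyte markers was 2.61 to 2.81 in the estradiol benzoate animals, 2.26 to 2.72 in the testosterone animals and 2.45 to 35.8 in the vehicle animals, with the highest value in vehicle animal 5. The summed intensity of 8 pancreatic acinar markers reached 101 in estradiol benzoate animal 3, against 0.505 to 4.87 in the other estradiol benzoate animals, 0.431 to 2.22 in the testosterone animals and 0.472 to 1.16 in the vehicle animals. The arteries had been cleared of fat per the labels, yet 5 or 6 of 7 adipocyte markers lay above log2 0 in each animal. The adipocyte sum was 76.9 to 101 in estradiol benzoate animals, 69.2 to 108 in testosterone animals and 82.3 to 90.6 in vehicle animals. The summed intensity of 7 lymphocyte markers was 1.38 to 1.88 in the estradiol benzoate animals, 1.26 to 1.78 in the testosterone animals and 1.28 to 1.68 in the vehicle animals, with 0 or 1 of them above log2 0 in each animal. All 7 lay higher against vehicle with each hormone, 5 under estradiol benzoate and 4 under testosterone at an unadjusted p under 0.05, where 6.77% and 6.62% of all probes were higher at that threshold. In the same comparisons 4 and 6 of the 11 hepatocyte markers, 2 and 1 of the 8 endothelium markers and 0 and 2 of 5 macrophage markers were lower, 5 and 0 of the 8 pancreatic markers were higher, and 0 of the smooth muscle and of 2 fibroblast markers stood out. The part of these cells in the receptor and coregulator levels was not tested. In such whole tissue, fewer cells of a type and less RNA per cell cannot be told apart.

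No receptor or coregulator probe differed between groups after adjustment over all 10228 tested probes. With limma's moderated test and Benjamini-Hochberg adjustment at 0.05, 0 of 43 probes passed in each of the 3 comparisons, where 0%, 0.0489% and 0.0293% of all probes passed for estradiol benzoate minus vehicle, testosterone minus vehicle and estradiol benzoate minus testosterone. The smallest adjusted p among the 43 was 0.327, 0.273 and 0.999 in the same order. At an unadjusted p under 0.05 there was 1 probe for estradiol benzoate minus vehicle (2.33%, against 13.5% of all probes), 5 for testosterone minus vehicle (11.6%, against 14.0%) and 1 for estradiol benzoate minus testosterone (2.33%, against 4.13%). Each share was below that of the whole array, but the counts are small, and whether the shares differ was not tested. The F test for any difference among the groups gave 1 probe at an unadjusted p under 0.05, that for Thra, where 11.9% of all probes did. After adjustment 0 of the 43 passed the F test, where 0.00978% of all probes did.

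The differences themselves were small and centred near 0. Estradiol benzoate minus vehicle ranged over the 43 probes from -0.53 to 0.52 on the log2 scale, testosterone minus vehicle from -0.59 to 0.46, and estradiol benzoate minus testosterone from -0.20 to 0.53. The median difference was 0.08, 0.07 and 0.00, against -0.01, -0.01 and -0.00 over all probes. With the sign left aside, the median size was 0.160, 0.163 and 0.0543, against 0.145, 0.146 and 0.0892 over all probes. Higher values in the first group were found for 28, 25 and 22 of the 43 probes. The 95% interval of the difference lay within 0.5 on the log2 scale, a 1.41-fold difference, on both sides of 0 for 19 probes with estradiol benzoate minus vehicle, 16 with testosterone minus vehicle and 26 with estradiol benzoate minus testosterone. These were 44.2%, 37.2% and 60.5% of the 43 probes, below the 56.4%, 56.9% and 66.3% of all probes. The interval lay within 1 on the log2 scale, a 2-fold difference, for 37, 36 and 39 probes (86.0%, 83.7% and 90.7%, against 86.9%, 87.0% and 89.6% of all probes). For the other probes the interval reached beyond that size on at least 1 side of 0. The 2 comparisons with vehicle share the same vehicle animals, so their values are given side by side and are not independent.

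**Figure D1:**
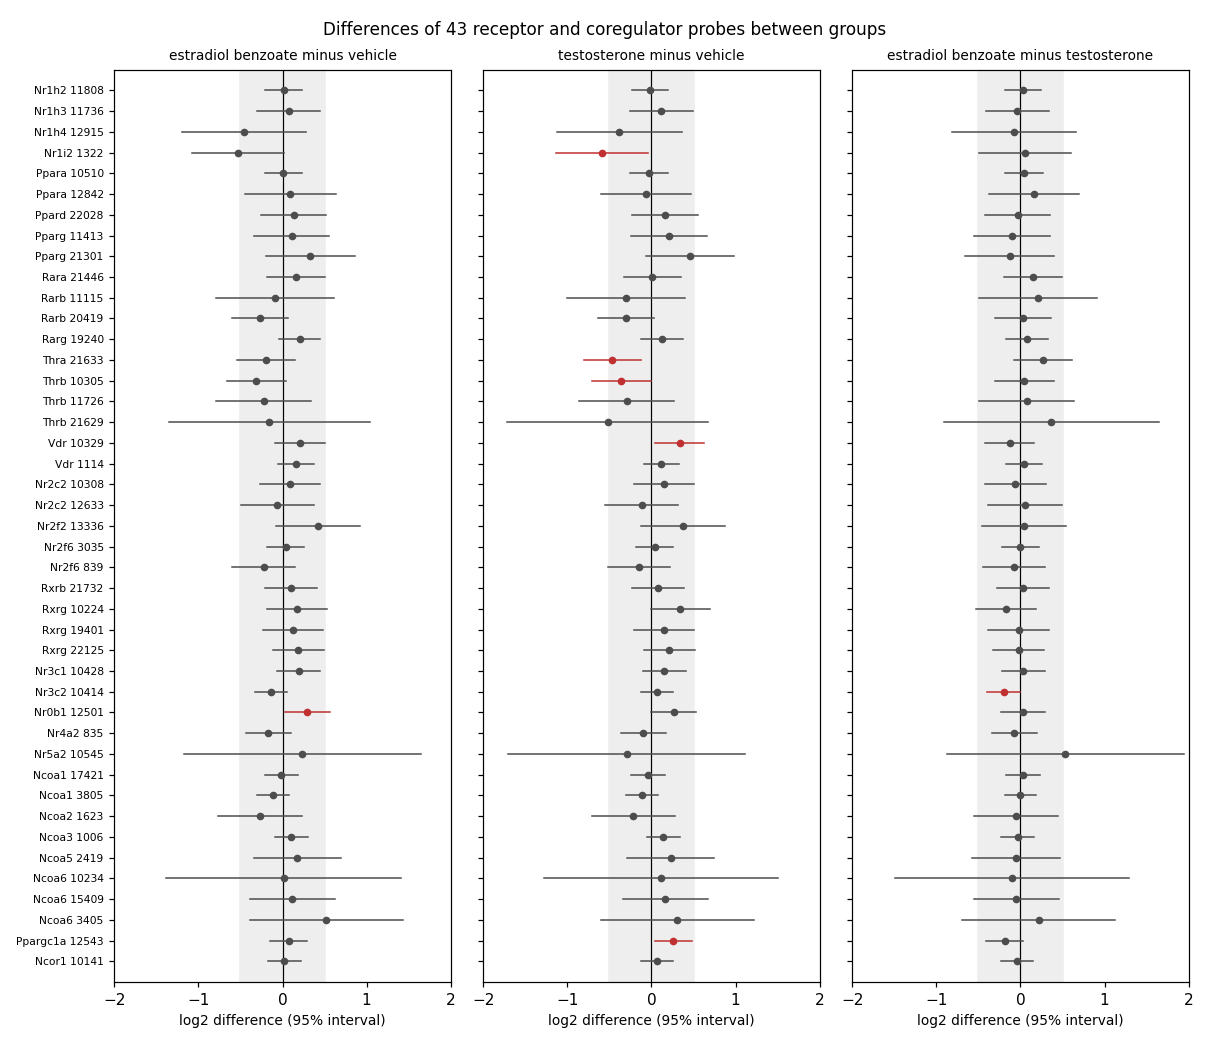
Differences in log2 level of the 43 tested probes, 1 row per probe with its gene symbol, for the 3 comparisons named above the panels. Points are differences of group means, lines are 95% intervals from limma, the grey band spans -0.5 to 0.5, and red marks an unadjusted p under 0.05 (1, 5 and 1 probes). Intervals of the dimmest probes, such as those for Nr5a2 and 1 of the Ncoa6 probes, are the widest.

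The thyroid hormone receptors are encoded by Thra and Thrb, and bind DNA mostly as pairs with RXR whether or not thyroid hormone is present. The single Thra probe had log2 levels of -0.17, -0.45, -0.49 and -0.12 in the estradiol benzoate animals, -0.20, -0.77, -0.51 and -0.84 in the testosterone animals, and -0.26, 0.16, -0.28 and -0.08 in the vehicle animals. Of the testosterone animals, 3 lay below every vehicle animal, while testosterone animal 2 lay among them, so the groups overlapped. The difference was -0.46 ± 0.16 for testosterone minus vehicle (SE, n = 4 each), with an interval of -0.81 to -0.12, an unadjusted p of 0.0125 and an adjusted p of 0.273 by limma. The 4 testosterone animals lay below the vehicle mean. For estradiol benzoate minus vehicle the difference was -0.19 (interval -0.54 to 0.15), and for estradiol benzoate minus testosterone it was 0.27 (interval -0.07 to 0.62). In RefSeq's GRCr8 annotation Thra overlaps Nr1d1 and Med24. Nr1i2 overlaps Gsk3b there, Ncor1 Pigl, Nr1h3 Acp2, Ppara Cdpf1 and Rxrb Slc39a7. Which part of its locus a probe reads was not analysed here.

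Thrb was read by 3 probes. On probe 10305 it had log2 levels of -2.71, -2.92, -2.89 and -2.96 in the estradiol benzoate animals, -2.95, -2.69, -2.95 and -3.07 in the testosterone animals, and -2.03, -2.61, -2.86 and -2.73 in the vehicle animals. This probe was among the dim ones. Vehicle animals 3 and 4 were the highest of all 12, and vehicle animals 5 and 8 lay among the treated ones. Testosterone minus vehicle was -0.36 ± 0.16 (SE, n = 4 each, unadjusted p 0.0459, adjusted p 0.350 by limma), and -0.18 without vehicle animal 3. Estradiol benzoate minus vehicle was -0.31 (interval -0.66 to 0.04). The second probe, 11726, had group means of -1.02 ± 0.33, -1.09 ± 0.31 and -0.79 ± 0.53 (SD, n = 4 each) for estradiol benzoate, testosterone and vehicle. The third, 21629, was close to the floor of the array, with values in 3 estradiol benzoate, 3 testosterone and 4 vehicle animals. The SD between duplicate arrays of an animal, pooled over the animals, was 1.33 there. The 4 thyroid receptor probes had differences of -0.16 to -0.31 with estradiol benzoate minus vehicle and of -0.30 to -0.52 with testosterone minus vehicle. None of these was distinguishable from 0 after adjustment.

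Nr1i2 encodes the pregnane X receptor, which senses drugs, steroids and bile acids, mainly in liver and intestine. Its probe was dim, with log2 levels of -4.58, -4.93, -5.28 and -5.16 in the estradiol benzoate animals, -5.08, -4.93, -4.93 and -5.24 in the testosterone animals, and -5.03, -4.31, -4.76 and -3.71 in the vehicle animals. Vehicle animals 8 and 4 were the highest, and vehicle animals 3 and 5 lay within the range of the treated animals. Testosterone minus vehicle was -0.59 ± 0.25 (SE, n = 4 each, unadjusted p 0.0363, adjusted p 0.332 by limma) and estradiol benzoate minus vehicle -0.53 (interval -1.08 to 0.01). The SD between duplicate arrays of an animal, pooled over the animals, was 0.711 here. Testosterone minus vehicle was -1.02 with the first array of each animal and -0.17 with the second. Without vehicle animal 8 it was -0.34. Vehicle animal 8, the highest for Nr1i2, had a hepatocyte marker sum of 2.45, and vehicle animal 5, with the highest sum, had Nr1i2 at -4.76. The part of liver RNA in the Nr1i2 levels was not tested.

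Nr1h4 encodes FXR, the bile acid receptor of liver and intestine. It had log2 levels of -2.96, -2.49, -2.67 and -2.43 in the estradiol benzoate animals, -2.47, -2.86, -2.33 and -2.60 in the testosterone animals, and -2.37, -2.44, -0.96 and -2.96 in the vehicle animals. Its probe was among the dim ones. The high value belonged to vehicle animal 5, the animal with the highest hepatocyte sum, and the part of liver RNA in this level was not tested. The differences were -0.46 (interval -1.20 to 0.28) for estradiol benzoate minus vehicle and -0.38 (interval -1.12 to 0.36) for testosterone minus vehicle. These values were chosen after they were seen.

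**Figure D2:**
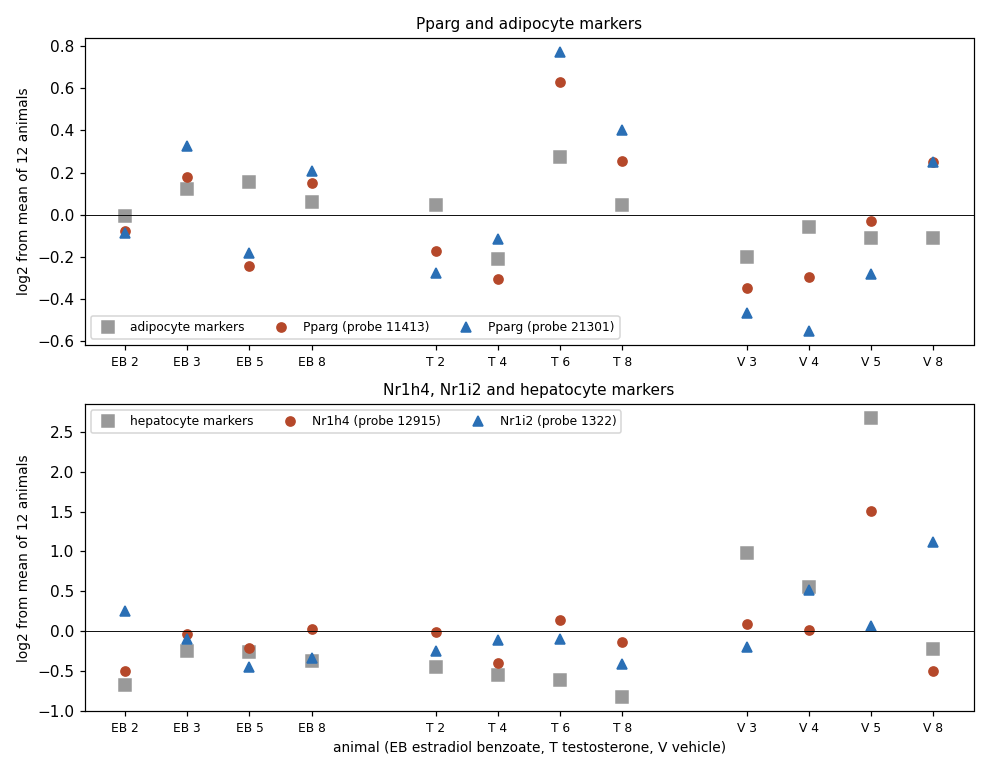
Levels per animal, as log2 differences from the mean of the 12 animals, for the Pparg probes beside the mean of 7 adipocyte markers (upper panel) and for Nr1h4 and Nr1i2 beside the mean of 11 hepatocyte markers (lower panel). Nr1h4 and the hepatocyte markers are both highest in vehicle animal 5, Nr1i2 is highest in vehicle animal 8, and both Pparg probes and the adipocyte markers are highest in testosterone animal 6.

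The PPAR receptors bind fatty acids and their products. Pparg, the master regulator of fat cell differentiation, had log2 levels on probe 21301 of 1.48, 1.89, 1.38 and 1.77 in the estradiol benzoate animals, 1.29, 1.45, 2.33 and 1.96 in the testosterone animals, and 1.10, 1.01, 1.28 and 1.81 in the vehicle animals. The highest was testosterone animal 6, which also had the highest mean of the adipocyte markers (0.27 above the mean of the 12 animals on the log2 scale), and the part of fat in these levels was not tested. Testosterone minus vehicle was 0.46 ± 0.24 on this probe (unadjusted p 0.0826, adjusted p 0.412 by limma) and 0.21 (interval -0.24 to 0.66) on the second probe, 11413, which was highest in the same animal at 4.40. Estradiol benzoate minus vehicle was 0.33 (interval -0.20 to 0.86) and 0.11 (interval -0.34 to 0.56) on these probes. Ppara, which drives fatty acid oxidation, was dim on both of its probes, and probe 10510 gave a difference of 0.01 (interval -0.21 to 0.23) for estradiol benzoate minus vehicle and -0.03 (interval -0.26 to 0.19) for testosterone minus vehicle. Ppard, the widely expressed member, differed by 0.13 (interval -0.26 to 0.52) and 0.16 (interval -0.23 to 0.55) in these comparisons. The levels of Pparg and Nr1h4 per animal were singled out after they were seen.

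The vitamin D receptor gene Vdr was read by 2 probes. Probe 10329, among the dim probes, had log2 levels of -2.48, -2.57, -2.74 and -2.64 in the estradiol benzoate animals, -2.35, -2.51, -2.62 and -2.45 in the testosterone animals, and -2.87, -2.56, -3.21 and -2.63 in the vehicle animals. Vehicle animals 5 and 3 were the lowest, and vehicle animals 4 and 8 lay among the treated ones. Testosterone minus vehicle was 0.34 ± 0.13 (SE, n = 4 each, unadjusted p 0.0286, adjusted p 0.318 by limma), and 0.21 without vehicle animal 5. The brighter probe 1114 gave 0.12 (interval -0.09 to 0.33) for the same comparison. Estradiol benzoate minus vehicle was 0.21 (interval -0.09 to 0.50) and 0.16 (interval -0.05 to 0.37) on the 2 probes.

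The retinoic acid receptors turn vitamin A signals into transcription. Rarg had log2 means of -0.76 ± 0.09, -0.83 ± 0.16 and -0.96 ± 0.19 (SD, n = 4 each) under estradiol benzoate, testosterone and vehicle, with a difference of 0.20 (interval -0.05 to 0.45) for estradiol benzoate minus vehicle. The tested Rara probe had means of -0.87 ± 0.13, -1.02 ± 0.14 and -1.04 ± 0.35 in the same order. Rarb differed by -0.27 (interval -0.60 to 0.07) on the brighter probe 20419 for estradiol benzoate minus vehicle and by -0.30 (interval -0.63 to 0.04) for testosterone minus vehicle. On the dim Rarb probe, 11115, estradiol benzoate minus vehicle was -0.09, and 0.12 with quantile normalization. No retinoic acid receptor probe reached an unadjusted p under 0.05 in any comparison. The liver X receptors are sterol sensors that promote cholesterol export. Nr1h2, the broadly expressed form, had means of 1.30 ± 0.11, 1.27 ± 0.16 and 1.29 ± 0.11, with a 95% interval of -0.20 to 0.23 for estradiol benzoate minus vehicle and of -0.24 to 0.20 for testosterone minus vehicle. Nr1h3, the form of liver, fat and macrophages, had means of 0.68 ± 0.13, 0.72 ± 0.41 and 0.60 ± 0.10.

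The retinoid X receptors are the shared partners of these receptors. Rxrg was read by 3 probes, and probe 10224 had log2 levels of -1.22, -1.48, -1.66 and -1.46 in the estradiol benzoate animals, -0.92, -1.78, -1.31 and -1.12 in the testosterone animals, and -1.60, -1.69, -1.66 and -1.55 in the vehicle animals. The vehicle animals lay close together, and testosterone animal 4 was below all of them while the other testosterone animals lay above. Testosterone minus vehicle was 0.34 ± 0.16 (SE, n = 4 each, unadjusted p 0.0554, adjusted p 0.368 by limma). The other 2 Rxrg probes gave 0.14 (interval -0.21 to 0.50) and 0.21 (interval -0.09 to 0.51), so the 3 probes had the same sign with overlapping intervals. Rxrb differed by 0.10 (interval -0.20 to 0.41) with estradiol benzoate minus vehicle and by 0.07 (interval -0.23 to 0.38) with testosterone minus vehicle. A probe carrying both Rxra and another symbol was not counted here.

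The orphan receptors of the NR2 family include the COUP transcription factors and the testicular receptor TR4. Nr2f2 encodes COUP-TFII, which is known for fixing vein identity in endothelium. It had log2 levels of 0.88, 0.94, 0.54 and 0.64 in the estradiol benzoate animals, 1.05, 0.67, 0.85 and 0.26 in the testosterone animals, and -0.17, 0.97, 0.27 and 0.24 in the vehicle animals. Vehicle animals 3, 5 and 8 lay below every estradiol benzoate animal and vehicle animal 4 above them all, and the difference was 0.42 (interval -0.08 to 0.92) for estradiol benzoate minus vehicle and 0.38 (interval -0.12 to 0.88) for testosterone minus vehicle. Its animals' values, like those of Nr3c1 and Ncoa2 below, were chosen for printing after they were seen. Nr2f6 and Nr2c2, read by 2 probes each, had differences between -0.22 and 0.15 over the 3 comparisons. Over the 9 probes of RXR and the other NR2 receptors, 0 reached an unadjusted p under 0.05, and the smallest unadjusted p was 0.0919, 0.0554 and 0.306 in the order of comparisons used above.

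The corticosteroid receptors are the closest relatives of the sex steroid receptors on the array list. Nr3c2, the mineralocorticoid receptor, which binds aldosterone and also corticosterone, had log2 levels of 0.69, 0.74, 0.80 and 0.99 in the estradiol benzoate animals, 1.08, 1.09, 0.96 and 0.89 in the testosterone animals, and 0.94, 1.03, 0.91 and 0.88 in the vehicle animals. Estradiol benzoate animals 2, 3 and 5 were the lowest of all 12, and estradiol benzoate animal 8 lay among the testosterone animals, so the groups overlapped. Estradiol benzoate minus testosterone was -0.20 ± 0.09 (SE, n = 4 each, unadjusted p 0.0421, adjusted p 0.999 by limma), and estradiol benzoate minus vehicle was -0.13 (interval -0.33 to 0.06). Nr3c1, the glucocorticoid receptor, had log2 levels of 2.47, 2.56, 2.51 and 2.52 in the estradiol benzoate animals, 2.47, 2.39, 2.55 and 2.50 in the testosterone animals, and 2.09, 2.20, 2.31 and 2.70 in the vehicle animals. The treated animals lay within a narrow range, and the vehicle animals spread on both sides of it. The differences from vehicle were 0.19 (interval -0.06 to 0.44) for estradiol benzoate and 0.15 (interval -0.10 to 0.41) for testosterone.

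Nr0b1 encodes DAX-1, an atypical receptor without a DNA-binding domain of the usual kind that represses steroidogenic genes in the adrenal and gonad. Its dim probe had log2 levels of -2.49, -2.58, -2.61 and -2.72 in the estradiol benzoate animals, -2.51, -2.83, -2.67 and -2.52 in the testosterone animals, and -2.61, -2.98, -3.15 and -2.85 in the vehicle animals. Vehicle animal 3 lay among the treated animals and the other vehicle animals below all of them. Estradiol benzoate minus vehicle was 0.30 ± 0.12 (SE, n = 4 each, unadjusted p 0.0321, adjusted p 0.327 by limma), and testosterone minus vehicle was 0.26 (interval -0.00 to 0.53). Nr4a2, NURR1, an orphan receptor induced quickly by many stimuli, differed by -0.17 (interval -0.43 to 0.10) with estradiol benzoate minus vehicle. Nr5a2, liver receptor homolog 1 of liver, pancreas and ovary, was close to the floor, between -8.62 and -4.47, and its intervals against vehicle reached beyond 1 on the log2 scale on each side of 0. In estradiol benzoate animal 3, where the pancreatic markers peaked, it stood at -6.01, within the range of the other animals.

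Coactivators of the NCOA family bind receptors that carry ligand. Ppargc1a, known for driving mitochondrial genes together with PPAR and related receptors, had log2 levels of -3.48, -3.45, -3.56 and -3.41 in the estradiol benzoate animals, -3.23, -3.27, -3.52 and -3.12 in the testosterone animals, and -3.41, -3.46, -3.67 and -3.65 in the vehicle animals. This probe was among the dim ones. Of the testosterone animals, 3 were the highest of all 12 and testosterone animal 6 lay among the vehicle animals. Testosterone minus vehicle was 0.26 ± 0.10 (SE, n = 4 each, unadjusted p 0.0243, adjusted p 0.311 by limma), and estradiol benzoate minus testosterone was -0.19 (interval -0.41 to 0.03). Ncoa1, SRC-1, the first of the p160 coactivators, had log2 levels on probe 3805 of 2.22, 2.31, 2.34 and 2.26 in the estradiol benzoate animals, 2.05, 2.34, 2.39 and 2.34 in the testosterone animals, and 2.45, 2.35, 2.39 and 2.40 in the vehicle animals. The estradiol benzoate and vehicle animals did not overlap, the single such case among the 43 probes (2.33%, against 7.82% of all probes), with 2.34 in the highest estradiol benzoate animal and 2.35 in the lowest vehicle animal. The difference was -0.12 (interval -0.30 to 0.07, unadjusted p 0.205), and the second Ncoa1 probe gave -0.01 (interval -0.21 to 0.19). For testosterone minus vehicle and estradiol benzoate minus testosterone, 0 of 43 probes had groups that did not overlap, against 5.59% and 3.05% of all probes. Ncoa1 was singled out after its values were seen.

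Ncoa2, the second p160 coactivator, stood at -2.92, -2.98, -3.27 and -3.04 in the estradiol benzoate animals, -2.88, -3.04, -3.05 and -3.05 in the testosterone animals, and -3.24, -3.01, -1.93 and -2.97 in the vehicle animals. The probe was among the dim ones, and again vehicle animal 5 stood apart from the other 11. Ncoa3, the third p160 coactivator, had means of 0.49 ± 0.07, 0.52 ± 0.13 and 0.38 ± 0.11 (SD, n = 4 each) for estradiol benzoate, testosterone and vehicle, with differences from vehicle of 0.11 (interval -0.09 to 0.30) and 0.14 (interval -0.06 to 0.33). Ncoa6, a coactivator found with histone methyltransferases, was read by 3 probes whose differences from vehicle lay between 0.01 and 0.52 with estradiol benzoate and between 0.11 and 0.30 with testosterone. The Ncoa6 probe with the difference of 0.52 was dim, with an interval of -0.39 to 1.43. Ncoa5 differed by 0.18 (interval -0.34 to 0.70) and 0.23 (interval -0.29 to 0.75) in the comparisons with vehicle.

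The corepressor Ncor1, which brings histone deacetylase to receptors without ligand, had log2 levels of 1.67, 1.53, 1.51 and 1.57 in the estradiol benzoate animals, 1.62, 1.54, 1.69 and 1.58 in the testosterone animals, and 1.38, 1.50, 1.74 and 1.56 in the vehicle animals. The vehicle animals enclosed all treated animals. The differences were 0.02 (interval -0.17 to 0.21) for estradiol benzoate minus vehicle and 0.06 (interval -0.13 to 0.25) for testosterone minus vehicle, so that a difference beyond 0.5 on the log2 scale lay outside both intervals. Among the 10 genes with more than 1 tested probe, all probes of a gene had 1 sign in 8 genes for estradiol benzoate minus vehicle, in 8 for testosterone minus vehicle and in 5 for estradiol benzoate minus testosterone. Quantile normalization turned the sign of 1 probe of Rarb, Nr2f6 and Ncoa1, among others, in comparisons with vehicle, each with a difference under 0.1 on the log2 scale.

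**Figure D3:**
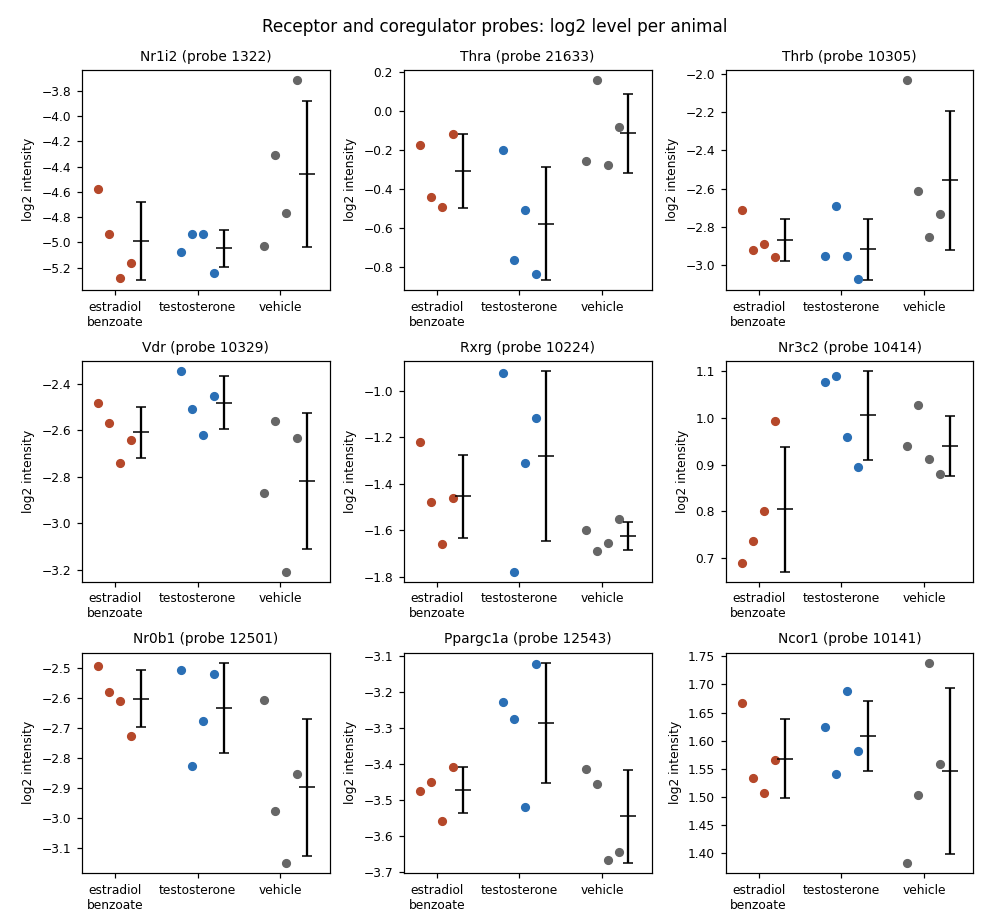
Log2 level of 9 probes in each animal, with estradiol benzoate, testosterone and vehicle from left to right and the group mean with its SD to the right of the points (n = 4 animals each, vertical scales differ). No probe passed the adjusted test, and groups overlap in the comparison with the lowest p in each of the panels, as for Thra, where testosterone animal 2 lies among the vehicle animals.

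Levels also varied between animals of 1 group. Estradiol benzoate animal 2 had the highest level of its group in 21 of the 42 probes with all values (50.0%, against 32.9% of all probes), and testosterone animal 2 in 19 (45.2%, against 29.5%). Estradiol benzoate animal 5 was the lowest of its group in 20 probes (47.6%, against 27.9% of all probes), and testosterone animal 8 in 18 (42.9%, against 28.2%). In the vehicle group the share of probes in which an animal was highest ran from 16.7% to 33.3%, against 21.6% to 29.0% over all probes.

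**Figure D4:**
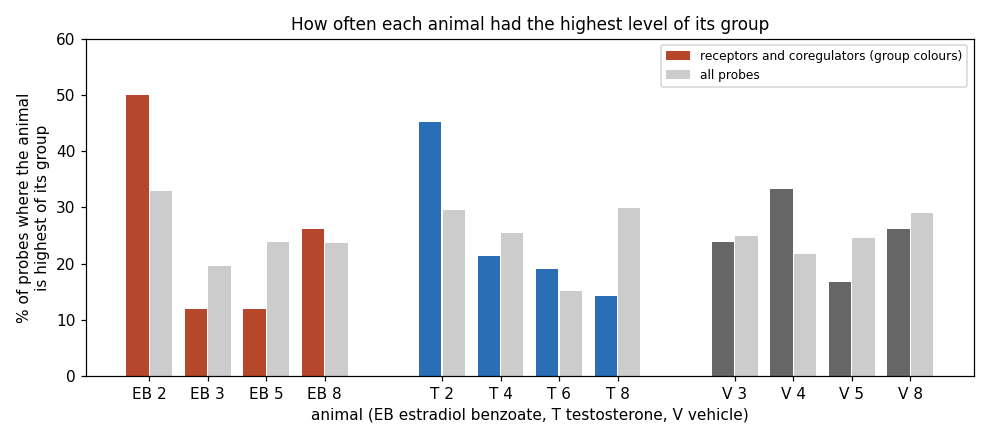
Share of probes, in percent, in which each animal had the highest level of its group of 4, for the 42 receptor and coregulator probes with all values (coloured bars) and for all 10031 probes with all values (grey bars). Animal 2 of the estradiol benzoate and of the testosterone group stands highest, at 50.0% and 45.2%.

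The partners, ligand suppliers and target genes of these receptors were then examined, with 1 probe a gene. The counts are of genes at an unadjusted p under 0.05, to be read against the 13.5%, 14.0% and 4.13% of all probes given above. Of all probes, 6.77% were higher and 6.69% lower with estradiol benzoate minus vehicle, 6.62% higher and 7.43% lower with testosterone minus vehicle, and 2.41% higher and 1.71% lower with estradiol benzoate minus testosterone. After adjustment, 0 genes of these lists passed the adjusted test. Of 20 further coregulators measured, 1 was higher and 3 lower with estradiol benzoate minus vehicle, 1 higher and 3 lower with testosterone minus vehicle, and 1 higher with estradiol benzoate minus testosterone. Tbl1xr1, a subunit of the Ncor1 corepressor complex, differed by -0.41 and -0.47 from vehicle under estradiol benzoate and testosterone (adjusted p 0.354 and 0.305 by limma). Park7 differed by -0.24 and -0.19, and Pnrc1 by -0.00 and -0.34. Of 7 receptor chaperones, 1 was lower against vehicle with each hormone. It was Hspa8, the constitutive Hsp70 that helps fold steroid receptors, with log2 means of 4.72 ± 0.03, 4.57 ± 0.25 and 5.22 ± 0.17 (SD, n = 4 each) under estradiol benzoate, testosterone and vehicle and adjusted p of 0.191 and 0.116 by limma against vehicle. Of a list of 6 nuclear receptors outside the symbol rule 1 was measured, Hnf4a, a liver and gut receptor, which differed by -0.50 and -0.57 from vehicle (unadjusted p 0.319 and 0.254 by limma). It was close to the floor, with log2 means of -6.47, -6.55 and -5.97 under estradiol benzoate, testosterone and vehicle.

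Of 12 genes that make, carry or break down receptor ligands, 1 was higher and 2 lower with estradiol benzoate minus vehicle, 5 were lower with testosterone minus vehicle, and 1 was higher and 1 lower with estradiol benzoate minus testosterone. The gene higher against vehicle was Fabp4 (0.30), which is also an adipocyte marker, and the part of fat in its level was not tested. Hsd11b2, the enzyme that inactivates corticosterone and so leaves the mineralocorticoid receptor to aldosterone, had log2 means of -1.60 ± 0.65, -1.24 ± 0.28 and -0.55 ± 0.31 (SD, n = 4 each). Its differences from vehicle were -1.05 ± 0.29 and -0.69 ± 0.29 (SE, adjusted p 0.195 and 0.324 by limma). Dio3, which inactivates thyroid hormone, differed by -0.55 with testosterone minus vehicle and by 0.84 with estradiol benzoate minus testosterone (adjusted p 0.323 and 0.571 by limma). Its probe was dim, with log2 means of -5.08, -5.92 and -5.36 under estradiol benzoate, testosterone and vehicle. Fabp1, the liver fatty acid binding protein, differed by -3.58 and -5.74 from vehicle, and its SD among the vehicle animals was 3.09, alongside the uneven hepatocyte markers.

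Of 16 PPAR target genes, 5 were higher with estradiol benzoate minus vehicle, 3 with testosterone minus vehicle and 1 with estradiol benzoate minus testosterone, with 0 lower in each. Cidea, Aqp7 and Cpt2 had the smallest p, with differences from vehicle of 0.47, 0.47 and 0.36 under estradiol benzoate and of 0.15, 0.50 and 0.54 under testosterone. Of the 16 genes, 4 are also adipocyte markers, Cidea and Aqp7 among them. Of 7 adipocyte markers 4 were higher with estradiol benzoate minus vehicle and 2 with testosterone minus vehicle. The part of fat in these counts was not tested. Of 4 LXR target genes, 2 were higher with estradiol benzoate minus vehicle, the fatty acid synthesis enzymes Fasn (0.84 ± 0.26, SE) and Acaca (0.72 ± 0.25, SE), with adjusted p of 0.245 and 0.290 by limma. In the same comparison Apoe differed by 0.28 and Abca1 by -0.26 (unadjusted p 0.198 and 0.270 by limma). The part of fat in these levels was not tested either. Of 7 thyroid hormone target genes, 2 were higher and 1 lower with estradiol benzoate minus vehicle, 1 was higher with testosterone minus vehicle, and 1 was lower with estradiol benzoate minus testosterone. Among them Mbp, a myelin gene, differed by 1.02 and 1.03 from vehicle (adjusted p 0.196 and 0.210 by limma), Me1, malic enzyme, by 1.08 and 0.37, and Hr, hairless, by -0.23 and 0.02. Mbp is also a Schwann cell marker. Of 4 such nerve markers 2 were higher in each comparison with vehicle, and Mbp was 1 of these both times. Beside it stood Dbh with estradiol benzoate and S100b with testosterone. The part of nerve in the Mbp levels was not tested. Of 8 retinoic acid and vitamin D target genes, 2 were higher with estradiol benzoate minus vehicle, 1 was lower with testosterone minus vehicle and 2 were higher with estradiol benzoate minus testosterone. S100g, a calcium-binding protein, differed by 1.28 ± 0.46 and 1.55 ± 0.46 (SE) in the comparisons of estradiol benzoate with vehicle and with testosterone, from levels near the floor, and Spp1, osteopontin, by 0.51 and 0.69. Of 5 glucocorticoid and mineralocorticoid receptor target genes 1 was higher with estradiol benzoate minus testosterone, Cebpd by 0.52, and 0 stood out against vehicle.

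The counts of receptor and coregulator probes at an unadjusted p under 0.05 depended on single animals. With testosterone minus vehicle the count of 5 became 10 without testosterone animal 4 (23.3%, against 14.0% of all probes in the same fit), 3 without testosterone animal 2 (6.98%, against 10.8%) and 2 without testosterone animal 8 (4.65%, against 14.4%). With estradiol benzoate minus vehicle the count of 1 became 3 without vehicle animal 5 or vehicle animal 8 (6.98%, against 12.6% and 14.7% of all probes), and 2 without estradiol benzoate animal 8, vehicle animal 3 or vehicle animal 4 (4.65%, against 10.5%, 9.73% and 16.2%). With estradiol benzoate minus testosterone it became 3 without testosterone animal 2 (6.98%, against 5.01% of all probes) and 0 without estradiol benzoate animal 2, estradiol benzoate animal 3, vehicle animal 3 or vehicle animal 5 (against 4.04%, 3.08%, 4.22% and 4.40%). Thra was the single probe whose testosterone minus vehicle difference kept an unadjusted p under 0.05 without each of the 12 animals in turn, with the difference between -0.59 and -0.37. With the second array of each animal alone its difference was -0.36, at an unadjusted p of 0.0549.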

How the data were processed

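Arterial RNA of 12 rats was measured on 24 CodeLink arrays, and the deposited values are spot intensity on a linear scale, with each array median just under 1. How background was corrected, values scaled and spots filtered is not given in the sources used here. Values at or below 0 (327) and blank spots were treated as missing, log2 was taken with no pseudocount, and both arrays of an animal were averaged. Probes with values in at least 3 animals of each group (10228 of 10399) were fitted with limma 3.58.1 in R 4.3.3 (group means of 12 animals, 9 residual and 2.51 prior degrees of freedom, two-sided tests), with Benjamini-Hochberg adjustment over all of them. The fit was tested on simulated data. Symbols came from the platform annotation; 7284 of 7294 probes with 1 symbol matched the rat gene reference.

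The members and gene lists were chosen with earlier results of these data known. Named with all values were probes at an unadjusted p under 0.05 and the smallest F test p of each receptor or coregulator class, and up to 3 genes of each further list; the animals' values of Pparg, Nr1h4, Nr2f2, Nr3c1, Ncoa1 and Ncoa2 were added after they were seen. Same-numbered animals of different groups correlated in their deviations from the group means with r from -0.12 to 0.30. Differently numbered animals were not set beside them, so these values cannot decide whether the numbers pair animals. The main fit used no pairing. Alternatives covered missing values, scaling, dim probes, duplicate arrays, the variance model, a replicate block and each animal left out.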

Additional observations from a re-analysis of the deposited data

Results flagged for a closer look

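In a group of 4 animals a value is listed here if the distance between it and the closest of the other 3 exceeded the 95% Dixon value for the group's range, which chance alone does in about 1 of 20 groups. Of 128 groups of receptor and coregulator probes, 4 held such a value, all of them in testosterone animal 2. Rarb on probe 11115 stood at -5.17 in that animal, against -6.69 to -6.53 in the other testosterone animals. Rxrb stood at -2.11, against -2.63 to -2.59. Ncoa2 stood at -2.88, against -3.05 to -3.04, and Ncoa1 on probe 3805 lay lower, at 2.05 against 2.34 to 2.39.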

How the results depend on the processing

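None of the 7 differences of named probes with an unadjusted p under 0.05 turned sign under any alternative, but each lost that call in some. For testosterone minus vehicle it was lost in 13 of 23 alternatives for Thrb, 10 of 23 for Vdr, 9 of 23 for Ppargc1a, 8 of 23 for Nr1i2 and 1 of 24 for Thra. Nr0b1 lost it in 11 of 23 for estradiol benzoate minus vehicle, and Nr3c2 in 12 of 24 for estradiol benzoate minus testosterone. Counts of receptor and coregulator probes at an unadjusted p under 0.05 were 1 for estradiol benzoate minus vehicle, 5 for testosterone minus vehicle, 1 for estradiol benzoate minus testosterone and 1 in the F test, and adjusted counts over all probes were 0, 5, 3 and 1. The cause of the shifts below was not tested. For estradiol benzoate minus vehicle the receptor count was 0 with quantile normalization, without dim probes, with a trended robust variance, with the replicate block and without vehicle animal 5 and estradiol benzoate animal 3 together (chosen after seeing the data), and 2 with array AB or with animal as a random block. The count over all probes was 3 without dim probes and with the trended robust variance, 1 with array AA and 226 with the random block. For testosterone minus vehicle the receptor count was 3 with quantile normalization, array AB or those 2 animals left out, 2 without dim probes, with 2 groups fitted or with the trended robust variance, and 8 with array AA. Over all probes it was 8 with quantile normalization, 2 without dim probes, 3 with array AA, 151 with the random block, 1 with 2 groups, 0 with the replicate block and 29 with those 2 animals left out. For estradiol benzoate minus testosterone the receptor count was 0 with array AA, with 2 groups or with those 2 animals left out, and 2 with array AB. Over all probes it was 1 with array AA, 40 with the random block, and 0 with quantile normalization, array AB, 2 groups, the replicate block or those 2 animals left out. In the F test the receptor count was 3 with array AA, array AB, the random block or the replicate block, and over all probes 7 with quantile normalization, 3 with median centring, 8 without dim probes, 0 with array AA or the replicate block, 6 with array AB, 254 with the random block and 12 with the trended robust variance.

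Leaving out each animal in turn, the receptor counts ran from 1 to 3, 2 to 10, 0 to 3 and 0 to 4 in the order above, and the counts over all probes from 0 to 2, 0 to 45, 0 to 1 and 0 to 32. Beside these counts, the share of all probes at an unadjusted p under 0.05 ran over the alternatives from 8.54% to 16.2% for estradiol benzoate minus vehicle, 9.67% to 16.1% for testosterone minus vehicle, 3.08% to 6.20% for estradiol benzoate minus testosterone and 8.45% to 15.1% in the F test. The receptor share was above that of all probes in 0 of 24, 4 of 24, 2 of 24 and 1 of 23 alternatives. These were, for testosterone minus vehicle, array AA (18.6%, against 12.0%), the random block (16.3%, against 15.0%), the replicate block (11.6%, against 9.67%) and the fit without testosterone animal 4, for estradiol benzoate minus testosterone array AB (4.76%, against 3.95%) and the fit without testosterone animal 2, and in the F test the fit without vehicle animal 3 (9.30%, against 8.45%). The Thra difference lost its unadjusted call with array AB alone. Whether the numbers pair animals is not known, so the replicate block is not taken as a stricter test of the same effect. Under it the receptor counts for testosterone minus vehicle and estradiol benzoate minus testosterone were 5 and 1. Quantile normalization turned the sign of 4 and 5 of 43 probes in the comparisons with vehicle and of 0 between the hormones. Dim probes limit what could be seen: 18 of the 43 lie in the dimmest 25%.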
